A study of Homo sapiens with 2 samples.

Results

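Ribosomal proteins are the structural proteins of the cytosolic ribosome. Those of the large subunit carry symbols beginning with RPL and those of the small subunit symbols beginning with RPS. Their genes are mostly short, lie on many chromosomes and are transcribed in practically every growing cell, and their transcripts commonly begin with a cytosine followed by a run of pyrimidines (the terminal oligopyrimidine start), through which translation of these mRNAs is tuned to nutrient supply. Because their promoters are active in most cell types, these genes are a useful class in which to look at where a transcription factor is found.

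The genes were chosen by symbol among the protein-coding genes of the RefSeq annotation of GRCh38.p14. The rule took 85 genes out of 20056, namely 52 genes of the large subunit and 33 of the small subunit, and used no measured value. It left out pseudogenes and also missed genes such as RPSA, RPL36AL, FAU and RACK1, whose products belong to the cytosolic ribosome but whose symbols have another form. The tissue-restricted or divergent paralogs RPL3L, RPL7L1, RPL10L, RPL22L1, RPL26L1, RPL39L, RPS27L, RPS4Y1 and RPS4Y2 were included.

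The data were 2 anti-Flag CUT & Tag libraries of TFK-1, a human cell line of extrahepatic cholangiocarcinoma. In CUT & Tag an antibody brings a transposase to a protein on chromatin, and the transposase cuts the DNA nearby into fragments that can be sequenced. One library came from cells transduced with a lentivirus for Flag-tagged HOXA5 (LV-HOXA5) and the other from cells with the corresponding negative control lentivirus (LV-HOXA5-NC), and according to the study's methods both kinds of cells were selected with puromycin as stable lines. The factor was therefore tagged and overexpressed, and with 1 library for each condition no difference between them has a replicate check. The LV-HOXA5 library held 15778555 fragments and gave 8043 peaks, whereas the LV-HOXA5-NC library held 1948734 fragments (12.4% of the former) and gave 635 peaks. The paper reports fewer peaks for the Flag-HOXA5 cells than this list holds, so the shares below are those of the list used here. Peak lists carry no expression values, so the identity of the cells and the level of HOXA5 were not checked here. Whether the control vector carries a Flag tag is not given in the sources used here.

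Most peaks near the start of a ribosomal protein gene lay beside the start and not over it, and the following sequences show this for the 4 genes of highest fold enrichment whose peak reached into the promoter. Each line gives the 250 bases before the annotated start, written 5′ to 3′ on the strand of the gene, from RefSeq on GRCh38.p14. Capitals mark the bases covered by the LV-HOXA5 peak, so that the lower-case bases at the right-hand end are the stretch between the peak and the start. RPL11 and RPLP0, which had no peak, follow for comparison and are wholly in lower case.
RPL9, chr4:39458923-39459172, minus strand: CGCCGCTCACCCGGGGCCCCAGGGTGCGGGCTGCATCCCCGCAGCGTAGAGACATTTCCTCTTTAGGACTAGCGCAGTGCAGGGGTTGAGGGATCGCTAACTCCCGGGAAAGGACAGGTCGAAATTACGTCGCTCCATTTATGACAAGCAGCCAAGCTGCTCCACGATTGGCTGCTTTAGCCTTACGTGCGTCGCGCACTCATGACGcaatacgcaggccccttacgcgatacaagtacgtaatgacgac
RPL39, chrX:119791631-119791880, minus strand: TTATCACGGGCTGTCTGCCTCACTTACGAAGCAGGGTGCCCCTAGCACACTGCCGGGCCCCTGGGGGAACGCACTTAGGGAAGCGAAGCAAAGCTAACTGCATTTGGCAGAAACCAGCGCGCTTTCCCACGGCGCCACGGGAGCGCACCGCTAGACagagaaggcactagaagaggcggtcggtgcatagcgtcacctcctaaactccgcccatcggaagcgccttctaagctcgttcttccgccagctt
RPS23, chr5:82278355-82278604, minus strand: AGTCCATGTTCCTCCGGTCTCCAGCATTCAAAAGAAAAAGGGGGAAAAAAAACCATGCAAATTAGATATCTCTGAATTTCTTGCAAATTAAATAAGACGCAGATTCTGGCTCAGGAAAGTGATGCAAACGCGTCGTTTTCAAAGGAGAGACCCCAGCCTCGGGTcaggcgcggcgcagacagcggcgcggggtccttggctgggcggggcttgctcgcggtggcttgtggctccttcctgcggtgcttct
RPL26, chr17:8383194-8383443, minus strand: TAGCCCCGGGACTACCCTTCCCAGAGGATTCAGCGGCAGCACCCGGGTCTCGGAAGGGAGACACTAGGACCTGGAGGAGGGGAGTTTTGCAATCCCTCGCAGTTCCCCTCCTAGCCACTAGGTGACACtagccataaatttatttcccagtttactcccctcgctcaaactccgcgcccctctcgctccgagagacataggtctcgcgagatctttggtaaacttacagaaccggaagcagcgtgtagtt
RPL11, chr1:23691529-23691778, plus strand: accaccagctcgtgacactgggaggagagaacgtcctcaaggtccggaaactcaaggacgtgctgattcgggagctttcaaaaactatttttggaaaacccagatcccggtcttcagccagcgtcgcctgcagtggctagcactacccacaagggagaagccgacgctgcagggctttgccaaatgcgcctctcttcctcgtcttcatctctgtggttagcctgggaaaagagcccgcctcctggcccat
RPLP0, chr12:120201112-120201361, minus strand: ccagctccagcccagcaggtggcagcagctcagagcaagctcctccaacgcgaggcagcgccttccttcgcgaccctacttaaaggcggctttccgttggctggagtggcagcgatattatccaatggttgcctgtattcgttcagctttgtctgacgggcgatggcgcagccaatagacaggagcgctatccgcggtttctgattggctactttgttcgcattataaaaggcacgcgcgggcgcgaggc

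Of these 250 bases, the peak covered 207 at RPL9, 164 at RPS23, 156 at RPL39 and 128 at RPL26. In all 4 the covered part was the one away from the gene. TAAT, the core letters of many homeobox binding sites, occurred 2 times on either strand before the start of RPL9 (1 of them under the peak) and 2 times before that of RPS23 (both under the peak). It did not occur in these bases of RPL39 or RPL26, and it occurred 2 times in those of RPLP0, which had no peak.

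In LV-HOXA5 cells, 20 of the 85 ribosomal protein genes (23.5%, exact 95% binomial interval 15.0% to 34.0%) had a peak within 1 kb of either end of the gene. Among the 19971 other protein-coding genes, 2592 (13.0%, interval 12.5% to 13.5%) had one. With the wider rule of a peak inside the gene or within 3 kb of an end, the count was 23 of 85 (27.1%, interval 18.0% to 37.8%) against 4133 of the others (20.7%, interval 20.1% to 21.3%). The share of ribosomal protein genes was thus above the background at 1 kb, and at 3 kb its interval included the background. With only the peaks of at least the median fold of the list, the share was 8.24% (interval 3.38% to 16.2%) against 6.94% within 1 kb. Under the wider rule it was 8.24%, with the same interval, against 11.2%, where the order turned. Both backgrounds lay inside that interval. At the annotated start the background also lay inside the interval. The intervals cover counting error only, genes are not replicates, and no test was made of the difference between the gene classes.

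The LV-HOXA5-NC list held no peak inside or within 3 kb of any of the 85 genes (0%, interval 0% to 4.25%). The background in that list was 0.135% of the other protein-coding genes within 1 kb and 0.716% inside or within 3 kb. The closest LV-HOXA5-NC peak to any ribosomal protein gene lay 21795 bp away, at RPL8. Scaled by the library totals, the pileups of the LV-HOXA5 peaks within 1 kb came to between 1.48 and 4.94 fragments, and the lowest pileup of any LV-HOXA5-NC peak was 4 fragments. Only 1 of the 21 peaks reached this level. A difference between the conditions at these genes was therefore not detectable from the lists.

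By subunit, 11 of the 52 large subunit genes (21.2%, interval 11.1% to 34.7%) and 9 of the 33 small subunit genes (27.3%, interval 13.3% to 45.5%) had a peak within 1 kb. With the wider rule the counts were 11 (21.2%) and 12 (36.4%, interval 20.4% to 54.9%), and RPS9, RPS16 and RPS29 were the genes added. The intervals of the subunits overlapped under both rules. In other gene lists of the translation machinery the intervals overlapped that of the 85 genes. Peaks within 1 kb were found at 17 of 77 mitochondrial ribosomal protein genes (22.1%, interval 13.4% to 33.0%), 11 of 41 ribosome biogenesis genes (26.8%, interval 14.2% to 42.9%) and 14 of 37 translation factor genes (37.8%, interval 22.5% to 55.2%).

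**Figure D1:**
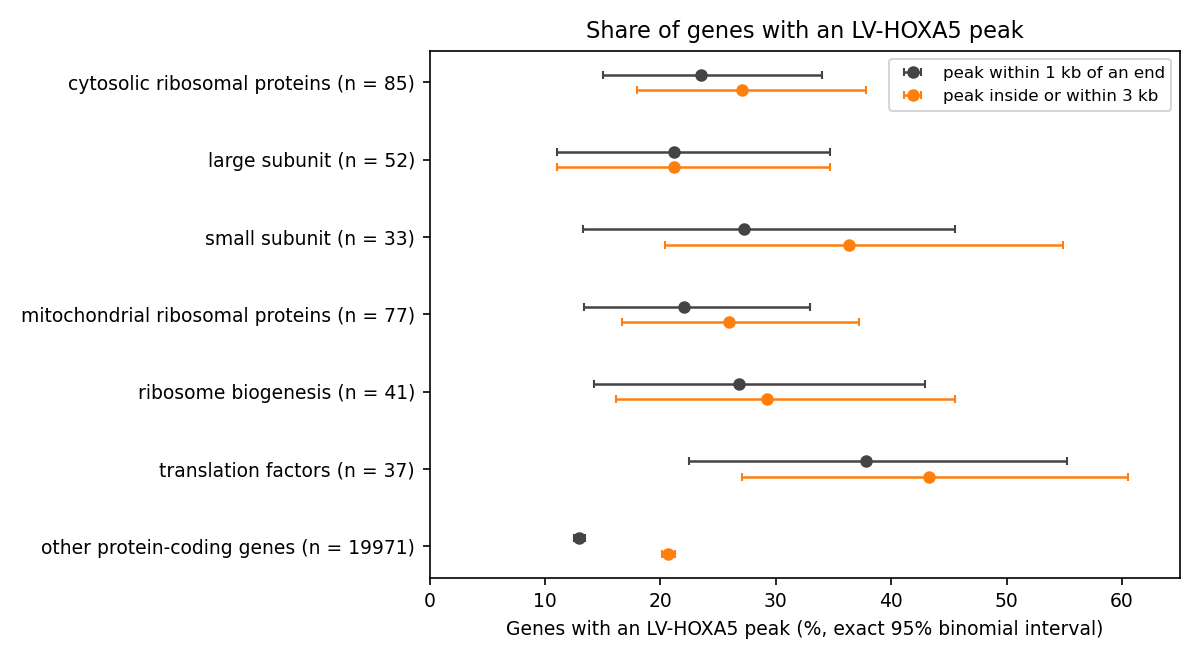
Percentage of genes with an LV-HOXA5 peak (horizontal axis) for the 85 cytosolic ribosomal protein genes, their subunits, 3 lists of other translation genes and the other protein-coding genes; dots are shares, bars exact 95% binomial intervals, black at up to 1 kb from an end and orange inside or within 3 kb. The share within 1 kb was 23.5% for the ribosomal protein genes and 13.0% for the other protein-coding genes, and the intervals of the subunits overlap.

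Among the large subunit genes, RPL9 had the highest fold enrichment, which is the pileup (the number of overlapping fragments) at the summit over that of the surrounding region. Its peak (chromosome 4, 39458966 to 39459340) lay 44 bp upstream of the start, with 16 fragments (exact 95% Poisson interval 9.15 to 26.0), 5.87-fold enrichment and a −log10 q-value of 6.89. LIAS, the gene of lipoic acid synthase, also has an end within 1 kb of this peak, and that end is the closer one. At RPL39 (chromosome X, 119791725 to 119792124) the pileup was 19 fragments (interval 11.4 to 29.7) and the fold enrichment 5.56, and the peak ended 95 bp before the start.

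RPL26, whose product can bind p53 mRNA and raise its translation, had a peak 123 bp before its start (chromosome 17, 8383316 to 8383574) with a pileup of 18 fragments (interval 10.7 to 28.5) and a 5.16-fold enrichment. RPL5, RPL11 and RPL23, which restrain the p53 ligase MDM2 when ribosome assembly fails, had no peak inside or within 3 kb, so that 1 gene of this list of 4 had one (interval 0.631% to 80.6%). None of the 3 genes of the stalk that recruits translation factors, RPLP0, RPLP1 and RPLP2, had a peak under either rule (interval 0% to 70.8%). These intervals include the background of 13.0% within 1 kb and 20.7% under the wider rule, and nothing about the lists can be read from them.

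RPL4 was the gene with a peak at each end. The peak at its start (chromosome 15, 66504882 to 66505270) held 16 fragments at the summit with 4.38-fold enrichment, and an end of ZWILCH, a kinetochore gene, lay within 1 kb of it. The peak at the other end (66497882 to 66498224) held 19 fragments with 4.63-fold enrichment and likewise had an end of SNAPC5 nearby. The Poisson intervals of the pileups overlapped between the ends.

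RPL37A had a peak across its start (chromosome 2, 216498698 to 216498970) with 13 fragments at the summit and 4.51-fold enrichment. At RPL28 the peak lay 90 bp upstream of the start (chromosome 19, 55385403 to 55385842), with 19 fragments at the summit and 3.97-fold enrichment. RPL7, with 21 fragments at the summit and 4.58-fold enrichment, had the longest peak, of 991 bp (chromosome 8, 73293605 to 73294595), which covered an end of the gene and also lay within 1 kb of an end of RDH10. The peak of RPL23A (chromosome 17, 28719647 to 28719971) held 32 fragments at the summit (interval 21.9 to 45.2), with a 4.28-fold enrichment, and ended 14 bp from the gene. The reference used here gives no strand for RPL7 and RPL23A, so which end is the start was not settled from it.

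In 3 further large subunit genes the peak lay at the end opposite the start. The RPL27A peak (chromosome 11, 8688857 to 8689213) lay inside the gene, 659 bp from its end, with 20 fragments at the summit and 5.41-fold enrichment. The RPL41 peak (chromosome 12, 56117907 to 56118450) covered the end of the gene, with 20 fragments at the summit and 3.89-fold enrichment, and an end of ZC3H10 lay within 1 kb. The RPL7L1 peak (chromosome 6, 42890601 to 42890868) lay 701 bp beyond the gene with the lowest pileup of the class, 12 fragments (interval 6.20 to 21.0), a 4.49-fold enrichment, and an end of PEX39 closer than that of RPL7L1.

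Among the small subunit genes, fold enrichment within 1 kb of an end ran from that of RPS19 to that of RPS23. At RPS19, the most often mutated gene in Diamond-Blackfan anaemia, the peak lay 129 bp upstream of the start (chromosome 19, 41859812 to 41860126) and had the lowest fold enrichment among the 21 peaks, 3.63, at a pileup of 19 fragments.

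RPS23, whose product helps to form the decoding centre, had a pileup of 14 fragments (interval 7.65 to 23.5) and a 5.18-fold enrichment (chromosome 5, 82278441 to 82278701). RPS24 had a 657 bp peak across its start (chromosome 10, 78033265 to 78033921), with 18 fragments at the summit and 5.13-fold enrichment. RPS26 also had its start covered (chromosome 12, 56041821 to 56042086), at 14 fragments and 4.41-fold. The peak of RPS6, the ribosomal protein phosphorylated by S6 kinase, lay 148 bp upstream of the start (chromosome 9, 19380384 to 19380634), with 13 fragments at the summit and 3.99-fold enrichment.

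Peaks with a summit downstream of the start were found at RPS27A and RPS27L. RPS27A encodes ubiquitin fused to a ribosomal protein, and its peak (chromosome 2, 55231958 to 55232219) began 55 bp inside the gene, with 20 fragments at the summit, 5.02-fold enrichment and an end of CLHC1 within 1 kb. RPS27L, a paralog of RPS27 that is induced by p53, had a peak over its start (chromosome 15, 63157204 to 63157741) with 17 fragments at the summit and 4.46-fold enrichment. RPS27 itself had no peak within 3 kb, the closest lying 22986 bp away.

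**Figure D2:**
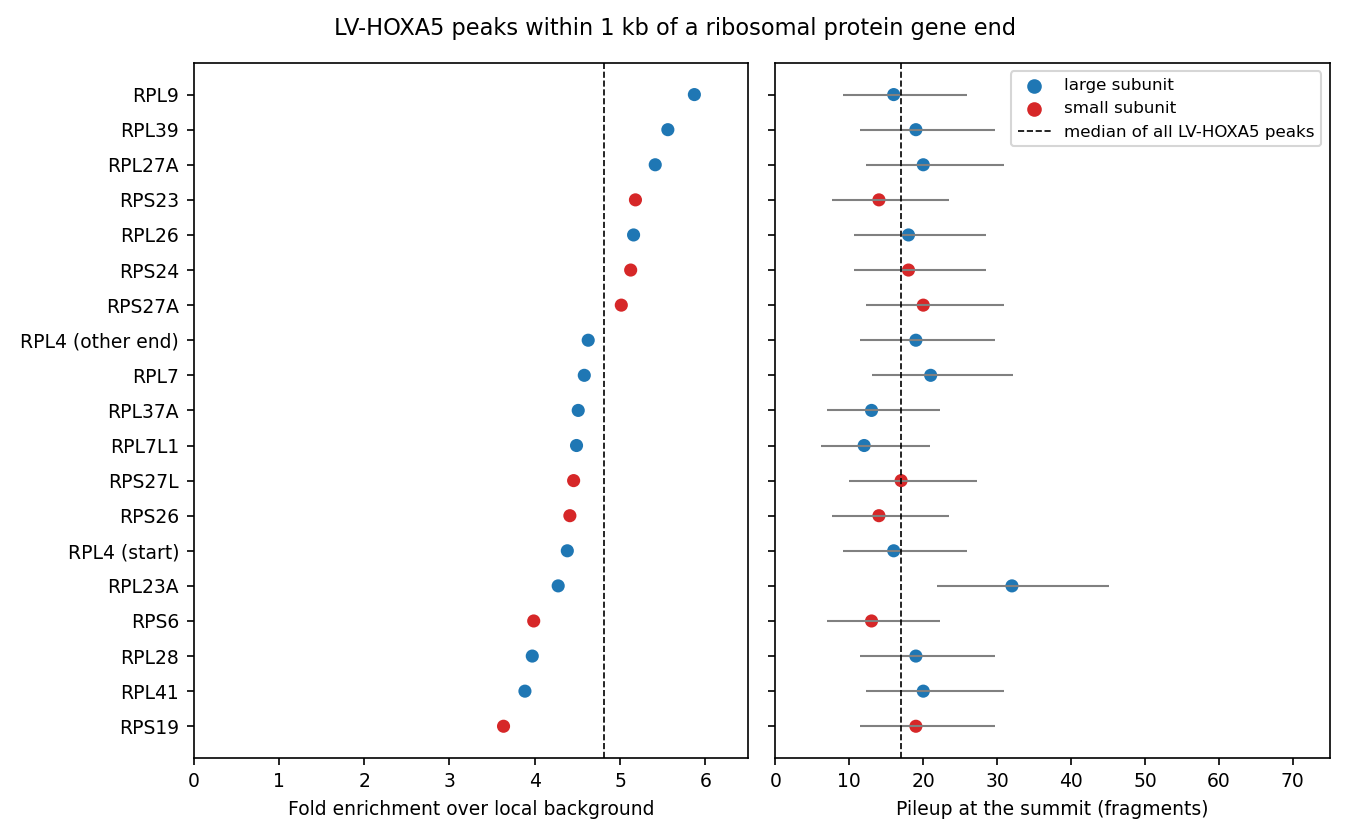
LV-HOXA5 peaks within 1 kb of an end of a ribosomal protein gene, 19 peaks of 18 genes, ordered by fold enrichment over local background (left, linear axis) and with the pileup in fragments at the summit (right); blue is the large and red the small subunit, grey bars are exact 95% Poisson intervals of the pileup, and dashed lines are the medians of all LV-HOXA5 peaks. Fold enrichment runs from 3.63 at RPS19 to 5.87 at RPL9, and 12 of the 19 peaks shown lie below the median of the list.

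The 3 genes with a peak under the wider rule only were all of the small subunit. RPS16 had a peak 1943 bp beyond its end (chromosome 19, 39430748 to 39431194) with 34 fragments and 4.53-fold enrichment, and RPS9 one 1978 bp beyond its end (chromosome 19, 54209625 to 54209895) with 21 fragments at the summit and 3.11-fold enrichment. In RPS29, whose annotation spans 27723 bp, the peak lay 11863 bp inside (chromosome 14, 49586146 to 49586847), with 20 fragments at the summit, 4.60-fold enrichment and an end of RN7SL1, a gene of the signal recognition particle RNA, within 1 kb. RPL23A had a second peak, 1707 bp from the gene, with 24 fragments at the summit and 3.38-fold enrichment, which was closer to RAB34.

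The other 62 genes had no peak inside or within 3 kb. In the large subunit these included RPL3, RPL3L, RPL5, RPL6, RPL7A, RPL8, RPL10, RPL10A, RPL10L, RPL11, RPL12, RPL13, RPL13A, RPL14, RPL15, RPL17, RPL18, RPL19, RPL21, RPL22, RPL22L1, RPL23, RPL24, RPL26L1, RPL27, RPL29, RPL30, RPL31, RPL32, RPL34, RPL35, RPL35A, RPL36, RPL36A, RPL37, RPL38, RPL39L, RPLP0, RPLP1 and RPLP2. In the small subunit they included RPS2, RPS3, RPS3A, RPS4X, RPS4Y1, RPS4Y2, RPS7, RPS10, RPS12, RPS13, RPS14, RPS15, RPS15A, RPS18, RPS20, RPS21, RPS25, RPS27 and RPS28. Their closest LV-HOXA5 peak lay at a median of 65411 bp from an end, and from 3549 bp (RPL13A) to 2667361 bp (RPS4Y2). For 4 of them, RPL13A, RPL24, RPL22 and RPLP1, it lay within 10 kb. The absence of a peak says that the region did not pass the authors' threshold at this depth.

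Of 14 genes known to be mutated in Diamond-Blackfan anaemia, an inherited failure of red cell production, 4 had a peak within 1 kb (28.6%, interval 8.39% to 58.1%), namely RPS19, RPS24, RPS26 and RPL26, and RPS29 had one inside. Of the 9 paralogs, 2 had a peak within 1 kb (22.2%, interval 2.81% to 60.0%), RPL7L1 and RPS27L. Both intervals include the 23.5% of the whole class and the 13.0% of the other protein-coding genes. Among the cytosolic ribosome genes that the rule missed, RPL36AL had a peak over an end (chromosome 14, 49620402 to 49620820) with 11 fragments at the summit and 3.65-fold enrichment, and RPSA, FAU and RACK1 had none.

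As a class the 21 peaks had ordinary pileups and q-values, but by fold enrichment most lay in the lower part of the list. Only 7 of them were above the median fold of all LV-HOXA5 peaks, 4.82, and the median of the 21 exceeded 38.8% of those peaks. Their median fold enrichment was 4.51 and their median pileup 19 fragments, whereas the 2100 LV-HOXA5 peaks within 1 kb of an end of another protein-coding gene had medians of 4.88 and 17 fragments. The median −log10 q-value was 5.72 against 5.50, and the median length 343 bp against 407 bp. The strongest peaks of the list were not among them, since the highest fold enrichment at other protein-coding gene ends was 19.9 and that of RPL9 exceeded 75.8% of all LV-HOXA5 peaks.

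The background around a peak was computed from the deposited values as (pileup + 1) / fold − 1. The median was 2.88 fragments at the peaks of ribosomal protein genes and 2.59 at those of the other gene ends, and 15 of the 21 peaks lay above the latter. Peaks on chromosome 19 had 4.04 to 7.75 fragments of local background at ribosomal protein genes, and the median of the 179 peaks at other protein-coding gene ends of that chromosome was 4.18. All 21 peaks kept a q-value of 0.001 or less. However, when only the peaks with at least the median fold of the list were counted, 7 genes remained (8.24%, interval 3.38% to 16.2%), namely RPL9, RPL39, RPL27A, RPS23, RPL26, RPS24 and RPS27A, against 6.94% of the other protein-coding genes. The other 13 of the 20 genes had only peaks of lower fold enrichment within 1 kb.

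**Figure D3:**
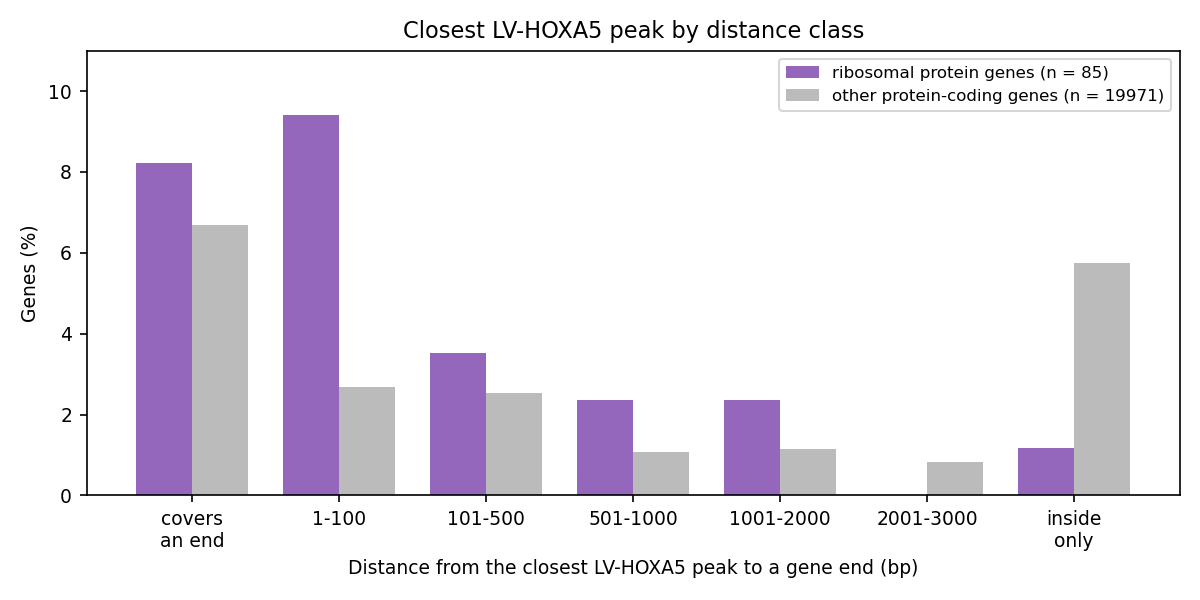
Percentage of genes (vertical axis) by the distance in bp from their closest LV-HOXA5 peak to an end of the gene (horizontal axis), for 85 ribosomal protein genes (purple) and 19971 other protein-coding genes (grey). Ribosomal protein genes exceed the others most in the class of 1 to 100 bp, with 8 genes (9.41%) against 2.69%. Their share is lower inside the gene only, with 1 gene against 5.75%. At 2001 to 3000 bp they have 0 genes against 0.831%, a share too small to show a shortfall among 85 genes.

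Many of the peaks were close to an end without covering it. By gene, 7 of the 85 had an end covered by a peak (8.24%, 6.68% among other genes), 8 had the closest peak at 1 to 100 bp (9.41% against 2.69%), 3 at 101 to 500 bp (3.53% against 2.54%) and 2 at 501 to 1000 bp (2.35% against 1.07%). By peak, 7 of 21 (33.3%) covered an end, whereas 56.2% of the peaks at other protein-coding gene ends did, although 19 of the 21 (90.5%) and 81.0% of the others lay within 150 bp. Inside the gene and over 3 kb from both ends lay the closest peak of 1 ribosomal protein gene (1.18%) and of 5.75% of the other genes. Ribosomal protein genes have a median length of 5057 bp and the others one of 24254 bp.

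The strand and annotated start were given by the promoter table for 68 of the 85 genes and for 15775 of the others. Within 1 kb of the annotated start, 13 of the 68 (19.1%, interval 10.6% to 30.5%) had a peak, against a background of 13.4%, which lies inside that interval. The summit lay upstream of the start in 11 of these 13 peaks and downstream in 2, with a median of 167 bp upstream and a range from 387 bp upstream to 236 bp downstream. At the other protein-coding genes, 67.7% of 2132 gene-start pairs had the summit upstream, with a median of 123 bp upstream. The peak covered the start in 4 of the 13 genes, RPL37A, RPS24, RPS26 and RPS27L, and ended before it in 8. Of the pairs at other genes, 53.9% had the start covered.

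**Figure D4:**
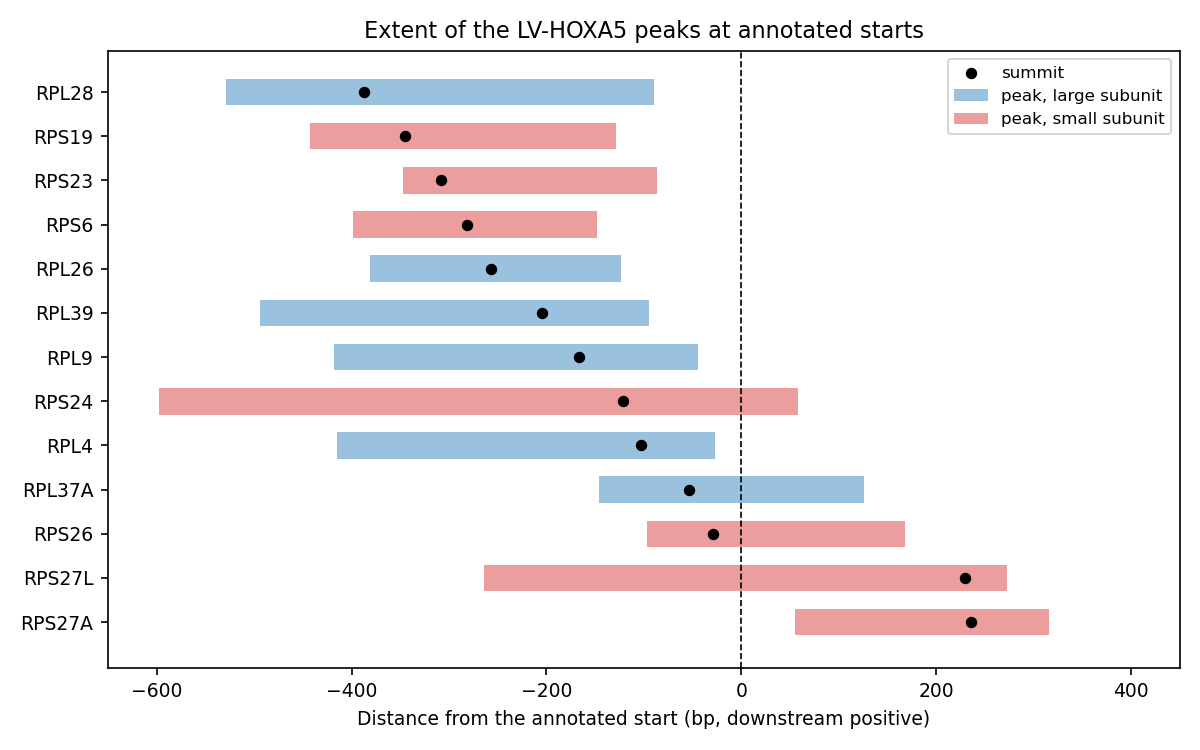
Position of the LV-HOXA5 peaks (bars, blue large and red small subunit) and their summits (black dots) relative to the annotated start of 13 ribosomal protein genes, in bp with downstream positive; the dashed line is the start. Summits run from 387 bp upstream at RPL28 to 236 bp downstream at RPS27A, and 8 peaks end before the start.

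The known start signature of the class was common with and without peaks. A cytosine at the annotated start followed by 4 pyrimidines was present in 43 of the 68 genes (63.2%) and in 4.04% of all 27305 RefSeq promoter windows, and it was present in 8 of the 13 genes with a peak near the start and 35 of the 55 without. CCGGAA, the core of ETS factor sites, was found in 38 of the 68 windows (55.9%) in 17.6% of all windows and in 22.7% of those of the other protein-coding genes, each window being the 250 bases before and 50 after the start searched on both strands. It was found in 6 of the 13 windows with a peak and 32 of the 55 without (58.2%). Of the windows of other protein-coding genes with a peak near the start, 33.1% held it.

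Homeobox letters were counted in the same windows. TAAT was found in 10 of the 13 windows with a peak near the start (76.9%), in 24 of the 55 without (43.6%) and in 51.0% of all windows. Among the other protein-coding genes it was found in 38.5% of the windows with a peak and in 42.0% of all. The longer TAATTA, which contains TAAT, was in none of the 68 windows, in 4.98% of all windows and in 3.35% of those of the other protein-coding genes. TGATTNAT, a form bound by HOX proteins with PBX partners, was in 2 of the 68 (2.94%), in 2.94% of all windows and in 2.07% of those of the other protein-coding genes. GGGCGG, bound by SP factors, was in 35 of the 68 (51.5%), in 44.6% of all windows and in 58.5% of those of the other protein-coding genes. By peak, it was in 6 of the 13 windows with one and 29 of the 55 without. Of the windows of other protein-coding genes with a peak near the start, 73.5% held it. AANATGGC, bound by YY1, was in 0 of the 13 windows with a peak and 11 of the 55 without, in 6.82% of all windows, in 7.89% of those of other protein-coding genes and in 13.2% of the latter with a peak. TATAAA was in 0 of the 13 and 7 of the 55, in 12.0% of all windows, in 9.62% of those of other protein-coding genes and in 5.10% of the latter with a peak. These matches describe letters in the windows, the groups are small, and all 13 peaks reached beyond the window. Matches were counted over the whole window, of which many peaks covered only a part, so a match need not lie under the peak. The peak of RPS27A, whose window holds TAAT, lay wholly outside it.

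Promoters rich in CpG had peaks more often across the genome. Among other protein-coding genes, 17.4% of those with at least the median number of CpG in the window (22) had a peak within 1 kb, against 10.2% of those below it. Of the ribosomal protein genes, 42 of 68 were in the upper class, and 8 of these 42 had one (interval 8.60% to 34.1%), which includes the 17.4% of the other CpG-rich genes. In the lower class, which held the rest of the 68, RPS27A, RPL4, RPS6, RPL7L1, RPL37A, RPL41, RPL26 and RPS23 had one. The background of the lower class is the 10.2% given above. No share or interval of ribosomal protein genes was computed there, so the upper class does not speak for all 68 genes. Windows of ribosomal protein genes with a peak near the start held a median of 22 CpG and those without 25. For the other protein-coding genes the order was the reverse, 25 with such a peak and 21 without. Of other protein-coding genes up to 10 kb long 8.78% had a peak within 1 kb, against 14.6% of longer ones, and of the 70 ribosomal protein genes of that length 16 did (22.9%, interval 13.7% to 34.5%). The part of CpG content and length in the shares was not tested.

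Chromosome 19, on which 12 of the 85 genes lie, held 4 of the 20 genes with a peak within 1 kb, RPL28 and RPS19 among them, and 6 of the 23 under the wider rule. Of the 1439 other protein-coding genes of this chromosome, 16.0% and 22.9% had one, and the intervals of the 12 genes (9.93% to 65.1% and 21.1% to 78.9%) include the former and the latter. Without chromosome 19, 16 of 73 ribosomal protein genes had a peak within 1 kb (21.9%, interval 13.1% to 33.1%) against 12.7% of the other protein-coding genes. Of the 21 peaks, 7 (33.3%) also lay within 1 kb of an end of another protein-coding gene, whereas 24.1% of the 2100 peaks at other gene ends had at least 2 such ends within reach. When only peaks with no second protein-coding end within 1 kb were counted, 14 of the 85 genes (16.5%, interval 9.31% to 26.1%) and 7.89% of the others had one.

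Pseudogenes made by copying of ribosomal protein mRNAs are numerous and lack the promoters of their parents. Of 1915 ribosomal protein pseudogenes in the annotation, 14 (0.731%) had an LV-HOXA5 peak at a distance of up to 1 kb, against 1.62% of the 14967 other pseudogenes, and peaks overlapped 2 of them.

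In the other lists, the members with a peak included genes of stronger enrichment than any cytosolic ribosomal protein gene. EIF5A, a factor that relieves stalled ribosomes, had a peak over an end with 48 fragments at the summit and 7.40-fold enrichment. DKC1, the pseudouridine synthase of ribosomal RNA, had a 6.89-fold peak, and MRPS28 of the mitochondrial small subunit a 6.82-fold peak. The median fold enrichment of the strongest peak per gene within 1 kb was 4.55 for cytosolic ribosomal protein genes, 4.75 for mitochondrial ribosomal protein genes, 4.85 for ribosome biogenesis genes, 4.84 for translation factor genes and 4.92 for the other protein-coding genes. The 14 of 37 translation factors with a peak within 1 kb (37.8%, against 13.0% of the other protein-coding genes) included EEF1A1 (4.32-fold), PABPC1 (4.21-fold) and TPT1 (4.56-fold). The mRNAs of these 3, like those of ribosomal proteins, have a pyrimidine start. EEF2, EEF1B2, EEF1D and EEF1G had no peak inside or within 3 kb, and of these at least EEF2 shares that start. How many factors of the list have such a start was not counted, so these genes are examples only.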

How the data were processed

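CUT & Tag peaks of 1 LV-HOXA5 and 1 LV-HOXA5-NC library were used, grouped by the treatment in the labels. Per the file headers, duplicates had been removed and the authors used MACS 2.2.7.1 separately for the 2 libraries, in paired-end mode, with 0.05 as q-value limit and no control sample. The submitters' processing notes name fastp, Bowtie2, deepTools, MACS2, ChIPseeker and GRCh38. The deposited tables hold for every peak a pileup signal in fragments, unscaled, at the summit. They also hold the fold enrichment, a ratio to the local background, and −log10 values of p and q as the authors' caller gave them. Depth differs between the libraries, so pileup and fold were compared within a list only. A second deposited form of each list was not used.

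Distances ran from peak edges to the ends of GRCh38.p14 RefSeq genes, and to annotated starts where the promoter table gave the strand. Shares have exact 95% binomial (Clopper-Pearson) intervals. They cover counting error only. The distance computation was tested on simulated data. Genes with a peak are described and the rest named, except that some genes counted in the totals are not reported here by name. The genes and lists were chosen with earlier results of these data known, and the listed alternatives are those of the closing section. The pseudogene, chromosome 19 and unshared-peak counts, the 150 bp limit, and the genes named from the other lists were chosen after values were seen. Python 3.11.15, NumPy 2.4.6, pandas 2.3.3, SciPy 1.17.1 and Matplotlib 3.10.9 were used.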

Additional observations from a re-analysis of the deposited data

How the results depend on the processing

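No paired analysis was possible because each condition had 1 library, and for the same reason no replicate could be left out. Of 75 recomputed values, 58 stayed inside the 95% interval of the reported value and 17 did not. Some of the 58 could not have moved, so the tally does not measure robustness. The LV-HOXA5-NC shares of ribosomal protein genes were 0, which settings that only drop peaks or genes or lengthen distances cannot raise. All 21 LV-HOXA5 peaks within 1 kb of these genes had a q-value of 0.001 or less, and 0 overlapped an LV-HOXA5-NC peak. Filtering on either property could not change the shares within 1 kb. The setting with the largest effect on ribosomal protein genes kept the peaks with at least the median fold of the list. It gave 8.24% within 1 kb and 8.24% under the wider rule, 7.69% for the large and 9.09% for the small subunit, and a median fold of 5.18, which rises by construction. Under it the other protein-coding genes had 6.94% and 11.2%, so that under the wider rule the order of the classes turned. Both values lie inside the interval of the ribosomal protein genes, 3.38% to 16.2% under either rule, so neither order is separable from counting error.

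For the other protein-coding genes, a q-value of 0.001 or less gave 11.3% within 1 kb and 17.9% under the wider rule, and assignment to the nearest gene 11.2% and 17.4%. Genes up to 10 kb long had 8.78% and 11.4%, and CpG-rich genes 17.4% within 1 kb. Windows of 500 bp and 2 kb gave 11.9% and 14.1%, and unshared peaks, an alternative chosen after seeing the data, 7.89%. Ribosomal protein genes had the higher share at each window and peak setting within 1 kb, by 1.19 to 2.09 times. At the lowest of these ratios, that of the median fold filter, and at the annotated start, the background lay inside the interval of the ribosomal protein genes. The 17.4% of the CpG-rich other genes, which is not among these ratios, also lay inside the reported interval of 15.0% to 34.0%. The settings draw on the same peak list and are not independent. With 1948734 fragments, the LV-HOXA5-NC list limits every statement about the control.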
